A study of Homo sapiens with 6 samples.

Results

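The 10 genes described here encode the subunits of the human hypoxia-inducible factor (HIF) and the proteins that tie its alpha subunits to oxygen. They are the alpha subunits HIF1A, EPAS1 and HIF3A, the beta subunits ARNT and ARNT2, the prolyl hydroxylases EGLN1, EGLN2 and EGLN3, VHL, and HIF1AN. They were taken by symbol from a count table of 60564 gene rows; all 10 were found, and all 10 were among the 17006 genes that passed the filter on low counts.

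Oxygen sensing in animal cells works through HIF, a transcription factor whose alpha subunit is made and destroyed continually when oxygen is present. Prolyl hydroxylases of the EGLN family use oxygen, iron and 2-oxoglutarate to mark the alpha subunit, the VHL protein binds the mark and brings about its ubiquitination, and an asparaginyl hydroxylase, HIF1AN, blocks its contact with coactivators. An alpha subunit that escapes pairs with a beta subunit of the ARNT family and binds short sites near its target genes, among them genes of glycolysis and pH control, and in many cells the genes of some prolyl hydroxylases themselves. Regulation of the alpha subunits is largely at the protein level, which RNA counts do not measure.

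The counts come from poly(A)-selected RNA-seq of A2780, an established human ovarian cancer cell line, with GPT2 as the gene of interest of the study. GPT2 is the mitochondrial alanine aminotransferase, which forms alanine and 2-oxoglutarate from pyruvate and glutamate. The 3 libraries labelled GPT2si are set against the 3 labelled GPT2sinc; the labels list both as genotypes of the same line and give no dose, time, oxygen tension or reagent sequence. Whether each library had its own culture is not stated, so a p-value here speaks only for the variation among these 6 libraries, part of which may be technical.

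Libraries held 41931162 to 50882329 counts in GPT2si and 43351984 to 45508530 in GPT2sinc, and levels are given as CPM, the counts relative to library size after scaling by TMM factors. A count of 3 corresponds to 0.0597 to 0.0770 CPM, a floor that covers counting error only, since without molecular identifiers PCR copies cannot be told from separate molecules. GPT2 itself had 93.8, 94.3 and 96.9 CPM in GPT2si 1 to 3, against 236, 229.9 and 219 CPM in GPT2sinc 1 to 3, so the labels and the gene go the same way (log2 fold change −1.26 ± 0.08 SE, edgeR adjusted p = 0.000393). Of the 17006 genes, 241 passed the edgeR test at an adjusted p under 0.05, which is 1.42%, and 0.841% passed it as lower in GPT2si. The calls split into 98 higher and 143 lower, against 1306 higher and 667 lower with offsets for GC content and length and 600 higher and 460 lower with DESeq2. Without GPT2si 2, 836 genes passed (4.77%), while leaving out other libraries left between 1 and 109. Among 7 ovarian and epithelial markers WT1, KRT7 and MUC16 stood at 3 counts or fewer in every library, PAX8 averaged 0.195 CPM in GPT2si and 0.176 CPM in GPT2sinc, and the summed level was 64.2 to 80.0 CPM in GPT2si against 57.2 to 59.6 CPM in GPT2sinc. The 6 fibroblast markers summed to 2990 to 3210 CPM in GPT2si and 3022 to 3167 CPM in GPT2sinc, mostly from the collagen gene COL3A1. The 6 endothelial markers, with CDH5 at 3 counts or fewer, summed to 0.0994 to 0.659 CPM in GPT2si and 0.262 to 0.529 CPM in GPT2sinc, and the 6 leukocyte markers, with CD3E and CD14 at 3 counts or fewer, to 4.85 to 8.95 CPM in GPT2si and 6.66 to 6.80 CPM in GPT2sinc.

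The windows upstream of 4 of the genes are shown. Of these, EGLN1, EGLN3 and HIF3A were lower in all GPT2si libraries than in all GPT2sinc libraries, and EGLN2 was not. ARNT, whose window is not shown, and VHL, for which no window was found, were also lower in this way. Each window runs from 250 bases before to 50 bases after the transcription start annotated by RefSeq on GRCh38.p14, 5′ to 3′ on the gene's strand. Capitals mark ACGTG or GCGTG read on either strand, the core of the HIF binding site. EGLN1 is chr1:231422238-231422537, minus strand; EGLN2 is the first of its annotated pair of windows, chr19:40798941-40799240, plus strand; EGLN3 is chr14:33951025-33951324, minus strand; HIF3A is the first of its 3 annotated windows, chr19:46296792-46297091, plus strand.
EGLN1: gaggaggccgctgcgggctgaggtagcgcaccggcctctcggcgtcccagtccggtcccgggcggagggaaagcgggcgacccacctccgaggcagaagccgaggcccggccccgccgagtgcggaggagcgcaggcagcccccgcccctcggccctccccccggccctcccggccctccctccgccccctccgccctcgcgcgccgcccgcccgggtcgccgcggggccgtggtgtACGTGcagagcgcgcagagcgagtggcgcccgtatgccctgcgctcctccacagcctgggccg
EGLN2: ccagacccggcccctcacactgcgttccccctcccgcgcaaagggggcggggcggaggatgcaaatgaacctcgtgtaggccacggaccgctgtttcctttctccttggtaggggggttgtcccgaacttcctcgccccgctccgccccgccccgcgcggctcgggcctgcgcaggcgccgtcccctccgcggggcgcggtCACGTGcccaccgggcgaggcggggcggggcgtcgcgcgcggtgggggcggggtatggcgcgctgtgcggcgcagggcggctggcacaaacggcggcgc
EGLN3: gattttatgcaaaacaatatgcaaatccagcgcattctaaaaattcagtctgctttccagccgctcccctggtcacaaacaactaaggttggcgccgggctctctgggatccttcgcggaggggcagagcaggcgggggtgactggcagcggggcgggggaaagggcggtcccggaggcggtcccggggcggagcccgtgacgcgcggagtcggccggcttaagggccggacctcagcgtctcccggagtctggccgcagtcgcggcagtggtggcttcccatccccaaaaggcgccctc
HIF3A: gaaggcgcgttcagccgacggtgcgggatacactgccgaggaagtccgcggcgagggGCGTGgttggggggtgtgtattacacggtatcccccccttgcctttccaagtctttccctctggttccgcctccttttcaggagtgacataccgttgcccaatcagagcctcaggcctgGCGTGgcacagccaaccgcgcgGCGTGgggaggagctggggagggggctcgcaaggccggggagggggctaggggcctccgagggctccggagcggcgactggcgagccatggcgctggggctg
The EGLN1 window holds 1 ACGTG, which begins 13 bases before the start. The first EGLN2 window holds CACGTG, a palindrome that reads as ACGTG on both strands, and the first HIF3A window holds 3 matches to GCGTG. The other annotated windows of EGLN2, HIF3A and HIF1A hold neither word. The EGLN3 window holds neither word. Of 35116 RefSeq windows of the same 300 bases, 48.4% hold at least 1 of the words and 21.4% hold ACGTG. A match thus describes these letters and does not by itself show a binding site, and binding was not measured. Windows were found for 8 of the 10 genes, the exceptions being ARNT2 and VHL. HIF1A and EPAS1 hold 1 GCGTG each in their first windows, and ARNT and HIF1AN hold none.

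Across the 10 genes the pattern was uneven. HIF3A fell and was the only one to pass the edgeR test. EGLN1 and EGLN3 had unadjusted p-values under 0.05 but missed the adjusted threshold, and the other 7 genes missed both. The 3 genes with an unadjusted p under 0.05 stand against 19.6% of all genes tested. In 5 genes, HIF3A, ARNT, EGLN1, EGLN3 and VHL, every GPT2si library lay below every GPT2sinc library, against 13.2% of all genes. In 0 of the 10 did every GPT2si library lie above, against 14.9% of all genes. The fitted log2 fold changes were negative for 8 genes and positive for EGLN2 and HIF1AN, with a median of −0.14 beside −0.01 over all genes. In bulk RNA, fewer cells making a transcript and less transcript per cell cannot be told apart.

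**Figure D1:**
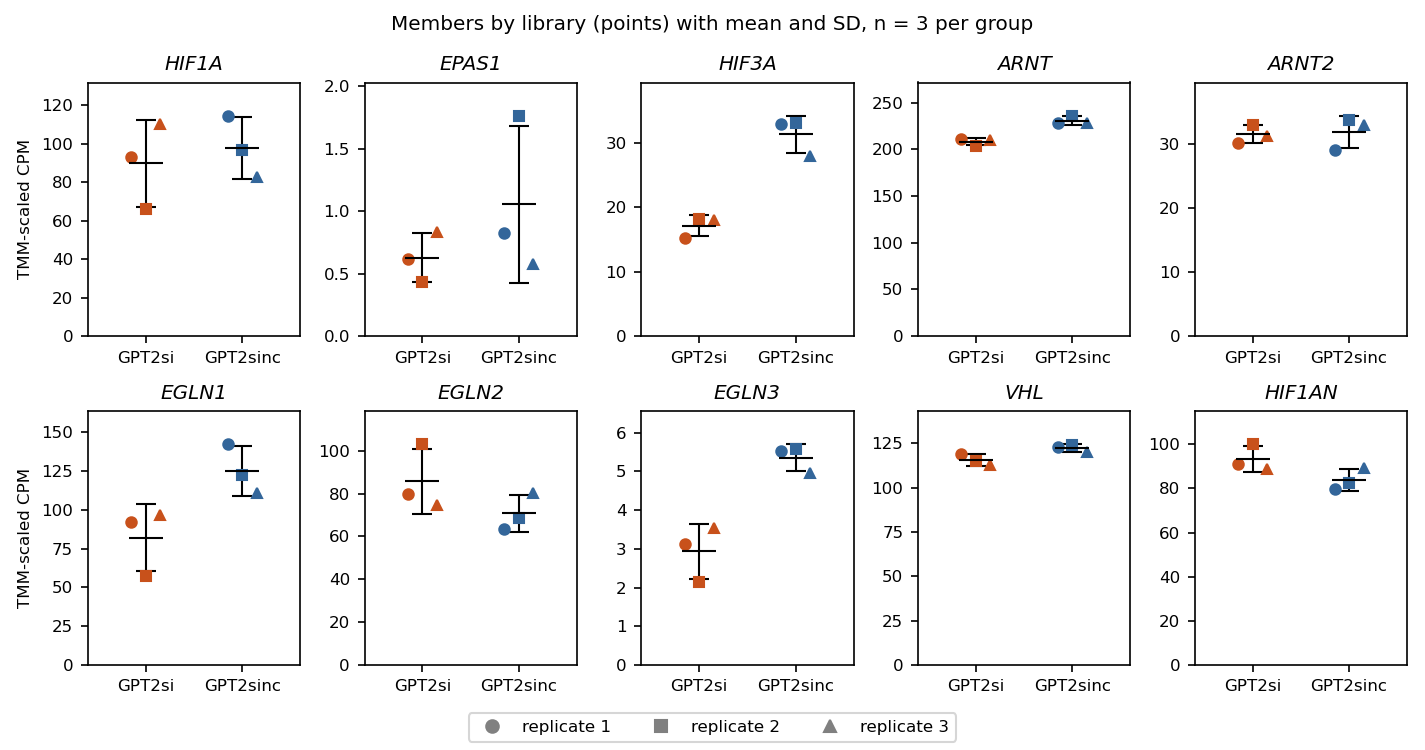
TMM-scaled CPM of each of the 10 genes in each library, with GPT2si left and GPT2sinc right in each panel; symbols give the replicate number, and bars the mean and SD of n = 3. HIF3A, EGLN1 and EGLN3 show the widest gaps between groups, while HIF1A and ARNT2 overlap.

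HIF1A, the alpha subunit that directs most of the glycolytic response to hypoxia, lies at chr14:61695513-61748259 on the plus strand (GRCh38, GENCODE 29). Its transcript had 93.1, 65.9 and 110.3 CPM in GPT2si 1 to 3, against 115, 96.7 and 82.5 CPM in GPT2sinc 1 to 3. The groups overlapped, and the lowest and the highest of the GPT2si libraries lay on either side of the GPT2sinc mean. The means were 89.7 ± 22.4 CPM in GPT2si and 98.0 ± 16.1 CPM in GPT2sinc (SD, n = 3 each), a log2 fold change of −0.13 ± 0.18 SE with a 95% interval of −0.53 to 0.28 and an edgeR adjusted p of 0.731.

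HIF1A has the lowest GC content of the 10 genes, 36.4% of the bases of its longest transcript. The libraries differed in how strongly levels followed GC content and transcript length. The trend fitted over all genes with a known length put genes like HIF1A at 0.00, −0.45 and 0.15 in GPT2si 1 to 3 and at 0.26, 0.04 and 0.00 in GPT2sinc 1 to 3, as log2 deviations from the mean of the 6 libraries. The measured deviations of HIF1A were 0.01, −0.49 and 0.26 in GPT2si and 0.31, 0.07 and −0.16 in GPT2sinc. With the trend removed they were 0.01, −0.04 and 0.11 in GPT2si against 0.05, 0.03 and −0.16 in GPT2sinc, so the low value of GPT2si 2 shrank to near the mean. The fitted difference was then 0.05 ± 0.08 SE (edgeR adjusted p = 0.707). Without GPT2si 2 it was 0.04, and neither sign is a call. HIF1A-AS1 and HIF1A-AS3, antisense RNAs within the locus, did not pass the filter on low counts.

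EPAS1, which encodes HIF-2 alpha and is typical of endothelial and renal cells, was barely detected (chr2:46293667-46386703, plus strand). It had 31, 17 and 38 counts in GPT2si 1 to 3, or 0.617, 0.436 and 0.834 CPM, against 38, 82 and 25 counts in GPT2sinc 1 to 3, or 0.828, 1.76 and 0.575 CPM. GPT2sinc 2 stood apart at the top, and the other 5 libraries were intermixed. Its log2 fold change was −0.74 ± 0.44 SE with a 95% interval of −1.72 to 0.24 (edgeR adjusted p = 0.376). The log2 ratio of EPAS1 to HIF1A counts within a library differed by −0.49 between GPT2si and GPT2sinc (two-sided exact permutation p = 0.3, adjusted p = 0.3 over 3 such ratios, n = 3 each) and by −0.03 without GPT2sinc 2.

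HIF3A fell by the edgeR test. Its locus, chr19:46297046-46343433 on the plus strand, gives rise to many splice forms, some of which encode short proteins that hold back the other alpha subunits, and the transcript is itself induced by HIF in many cells. It had 15.3, 18.1 and 18.1 CPM in GPT2si 1 to 3, against 32.9, 33.1 and 27.9 CPM in GPT2sinc 1 to 3, with 707 to 823 counts per GPT2si library and 1215 to 1537 per GPT2sinc library. All GPT2si libraries lay well below all GPT2sinc libraries. The mean fell to 17.2 ± 1.64 CPM in GPT2si, against 31.3 ± 2.93 CPM in GPT2sinc (SD, n = 3 each), which is 54.8% of the GPT2sinc mean. The log2 fold change was −0.87 ± 0.12 SE with a 95% interval of −1.14 to −0.60 (edgeR adjusted p = 0.0159), the 35th smallest p of all genes. The difference with the GC and length trend removed was −0.86 ± 0.09 SE (edgeR adjusted p = 0.00232), so that trend moved it little. With single libraries left out the log2 fold change was −0.94 to −0.80; the adjusted edgeR p was 0.00725 without GPT2si 2 and 0.0311 without GPT2si 3, and it passed 0.05 without GPT2si 1 (0.0921), GPT2sinc 1 (0.104), GPT2sinc 2 (0.130) and GPT2sinc 3 (0.0570). Counts per gene do not separate its splice forms.

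Expressed per kilobase of merged exons (RPKM), HIF1A made up 90.5%, 85.2% and 90.4% of the 3 alpha transcripts in GPT2si 1 to 3, against 84.6%, 81.7% and 82.4% in GPT2sinc 1 to 3. HIF3A made up 9.12%, 14.4% and 9.11% in GPT2si, against 14.9%, 17.2% and 17.2% in GPT2sinc, and its shares did not overlap between the groups. EPAS1 supplied 1.05% or less in every library. Gene models with the longest transcript as length gave HIF3A a mean share of 11.8% in GPT2si and 17.8% in GPT2sinc. The shares move with HIF1A as well as with HIF3A, were not adjusted for the GC and length trend, and were not tested.

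ARNT, the main dimer partner of the alpha subunits, was the most abundant of the 10 transcripts (chr1:150809705-150876768, minus strand). It had 211, 204 and 210.2 CPM in GPT2si 1 to 3, against 228, 236 and 228 CPM in GPT2sinc 1 to 3. The groups did not overlap, but the gap was small: 208 ± 4.10 CPM in GPT2si is 90.3% of the 230.5 ± 4.84 CPM in GPT2sinc (SD, n = 3 each). The log2 fold change of −0.15 ± 0.07 SE missed the test (95% interval −0.31 to 0.02, edgeR adjusted p = 0.301), and with the GC and length trend removed it was −0.09 and the libraries overlapped.

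ARNT2, a close relative of ARNT best known from the nervous system, lies at chr15:80404350-80597937 on the plus strand. It had 30.2, 33.0 and 31.2 CPM in GPT2si 1 to 3, against 29.01, 33.6 and 33.0 CPM in GPT2sinc 1 to 3, and the groups overlapped fully. Its log2 fold change was −0.02 ± 0.10 SE with a 95% interval of −0.25 to 0.21 (edgeR adjusted p = 0.935). ARNT2 supplied 11.3% ± 0.646 of the ARNT and ARNT2 transcripts per kilobase in GPT2si and 10.4% ± 0.641 in GPT2sinc (SD, n = 3 each). The log2 ratio of ARNT2 to ARNT differed by 0.13 (two-sided exact permutation p = 0.2, adjusted p = 0.3, n = 3 each).

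EGLN1 encodes PHD2, the prolyl hydroxylase that sets HIF-1 alpha levels in most cells under normal oxygen, and its gene is a HIF target (chr1:231363751-231425044, minus strand). It had 91.9, 57.1 and 96.8 CPM in GPT2si 1 to 3, against 142, 122 and 111 CPM in GPT2sinc 1 to 3. All GPT2si libraries lay below all GPT2sinc libraries, with GPT2si 2 far below the other two of its group. The means were 81.9 ± 21.7 CPM in GPT2si and 125 ± 15.9 CPM in GPT2sinc (SD, n = 3 each), a log2 fold change of −0.61 ± 0.18 SE with a 95% interval of −1.02 to −0.20. The unadjusted p was 0.00785 and the edgeR adjusted p 0.121, so EGLN1 did not pass.

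EGLN1 passed in some of the other fits. Its trend for GC content (44.1%) and length was −0.01, −0.30 and 0.11 in GPT2si 1 to 3 and 0.19, 0.03 and −0.02 in GPT2sinc 1 to 3 on the log2 scale. With it removed the log2 fold change was −0.50 ± 0.10 SE (edgeR adjusted p = 0.0167), in a fit that called 11.7% of all genes. DESeq2, which called 7.89% of the genes it tested, gave EGLN1 an adjusted p of 0.0134. Without GPT2si 2 the difference was −0.42 and the edgeR adjusted p 0.0557.

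EGLN2 encodes PHD1, a prolyl hydroxylase whose gene is not known as a hypoxia-induced one (chr19:40798996-40808433, plus strand). It had 79.8, 103 and 74.6 CPM in GPT2si 1 to 3, against 63.3, 68.6 and 80.2 CPM in GPT2sinc 1 to 3. GPT2si 2 stood highest, and the groups overlapped because GPT2sinc 3 exceeded 2 of the GPT2si libraries. For EGLN2 the log2 fold change was 0.28 ± 0.14 SE with a 95% interval of −0.03 to 0.59 (edgeR adjusted p = 0.296), and 0.11 without GPT2si 2. The readthrough gene RAB4B-EGLN2 shares 2012 exonic bases with EGLN2 on the same strand, so counting could split reads between the pair. It had 10.7, 14.6 and 15.1 CPM in GPT2si 1 to 3, against 19.4, 20.6 and 6.23 CPM in GPT2sinc 1 to 3. In GPT2sinc 3 the readthrough was lowest and EGLN2 highest of that group. Counted together, a choice made after seeing the data, the pair had 90.5, 118 and 89.7 CPM in GPT2si against 82.6, 89.2 and 86.4 CPM in GPT2sinc. All GPT2si libraries then lay above all GPT2sinc libraries, but the log2 fold change of 0.21 ± 0.11 SE did not pass (edgeR adjusted p = 0.350).

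EGLN3 encodes PHD3, the prolyl hydroxylase most strongly induced by HIF in many cells, and lies at chr14:33924231-34462774 on the minus strand. It was a low transcript here, with 157, 84 and 161 counts in GPT2si 1 to 3 against 254, 259 and 216 counts in GPT2sinc 1 to 3. These are 3.12, 2.16 and 3.53 CPM in GPT2si, against 5.54, 5.57 and 4.96 CPM in GPT2sinc. The groups did not overlap, and the mean of 2.94 ± 0.708 CPM in GPT2si is 54.8% of the 5.36 ± 0.342 CPM in GPT2sinc (SD, n = 3 each). The log2 fold change of −0.86 ± 0.20 SE (95% interval −1.31 to −0.42) had an unadjusted p of 0.00158 and an edgeR adjusted p of 0.0690, above the threshold. With the GC and length trend removed it was −0.84 ± 0.18 SE (edgeR adjusted p = 0.0178). DESeq2 gave an adjusted p of 0.00741, and edgeR without GPT2si 2 gave −0.70 with an adjusted p of 0.0425. These fits called 11.7%, 7.89% and 4.77% of the genes they tested. EGLN3 passed in 4 of 9 alternative settings, missing for instance with no filter on low counts (edgeR adjusted p = 0.138). With single libraries left out it passed in 1 of 6 fits (edgeR adjusted p up to 0.251).

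**Figure D2:**
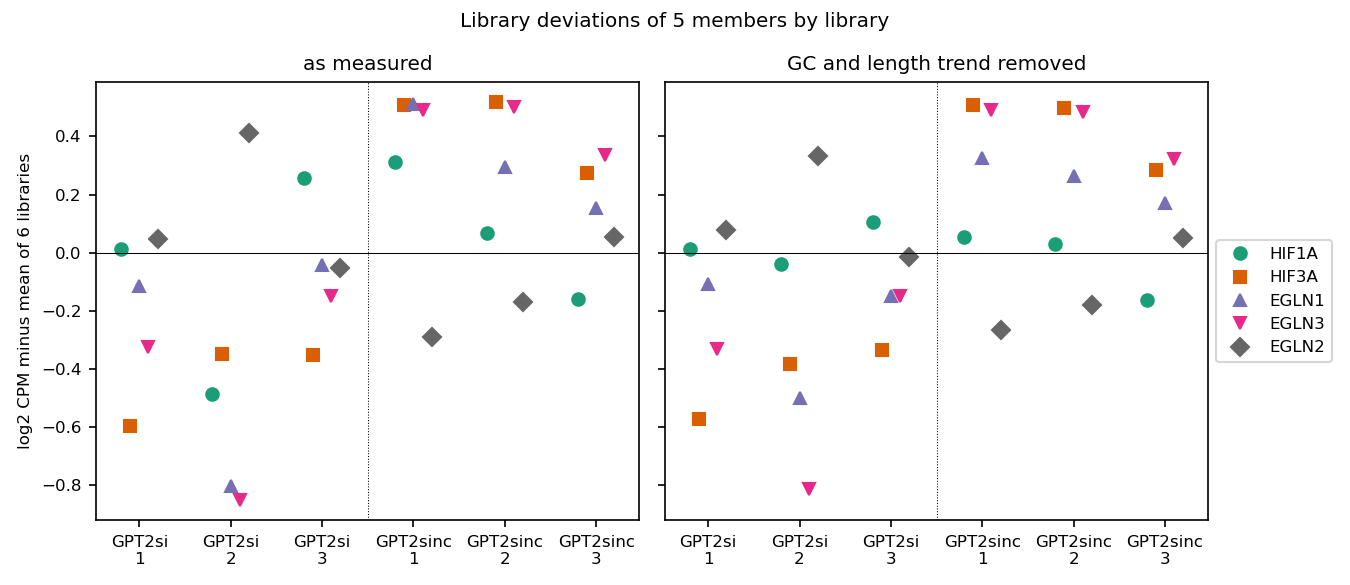
Log2 CPM of HIF1A, HIF3A, EGLN1, EGLN3 and EGLN2 in each library, minus the gene's mean over the 6 libraries, as measured (left) and with the trend on GC content and length removed (right). HIF1A in GPT2si 2 lies at −0.49 as measured and at −0.04 with the trend removed, while HIF3A, EGLN1 and EGLN3 keep every GPT2si library below every GPT2sinc library in both panels.

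The fitted values were thus negative for EGLN1 and EGLN3 and positive for EGLN2, and the mixture of the 3 transcripts differed between the libraries of the groups. Per kilobase of merged exons EGLN1 made up 50.2%, 33.0% and 53.0% of the 3 in GPT2si 1 to 3, against 65.4%, 60.0% and 54.2% in GPT2sinc 1 to 3. EGLN2 made up 48.1%, 65.8% and 45.1% in GPT2si, against 32.1%, 37.3% and 43.4% in GPT2sinc. Neither share overlapped between the groups, although GPT2si 3 and GPT2sinc 3 were close. EGLN3 made up 1.61% ± 0.346 in GPT2si and 2.54% ± 0.154 in GPT2sinc (SD, n = 3 each). The summed level was 25.2, 23.8 and 25.1 RPKM in GPT2si, against 30.0, 28.0 and 28.1 RPKM in GPT2sinc. With the longest transcript as length, EGLN1 averaged 33.5% in GPT2si and 46.8% in GPT2sinc, so the size of a share depends on the gene model while the order of the libraries in the EGLN1 share does not. These shares are descriptions with no test, and they were not adjusted for GC content and length. That trend was −0.30 for EGLN1 and 0.08 for EGLN2 in GPT2si 2, and 0.19 for EGLN1 and −0.02 for EGLN2 in GPT2sinc 1. The log2 ratio of EGLN3 to EGLN1 counts differed by −0.25 between GPT2si and GPT2sinc (two-sided exact permutation p = 0.1, the smallest that 3 against 3 libraries allow, adjusted p = 0.3, n = 3 each), with a range of −0.33 to −0.21 over single libraries left out.

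**Figure D3:**
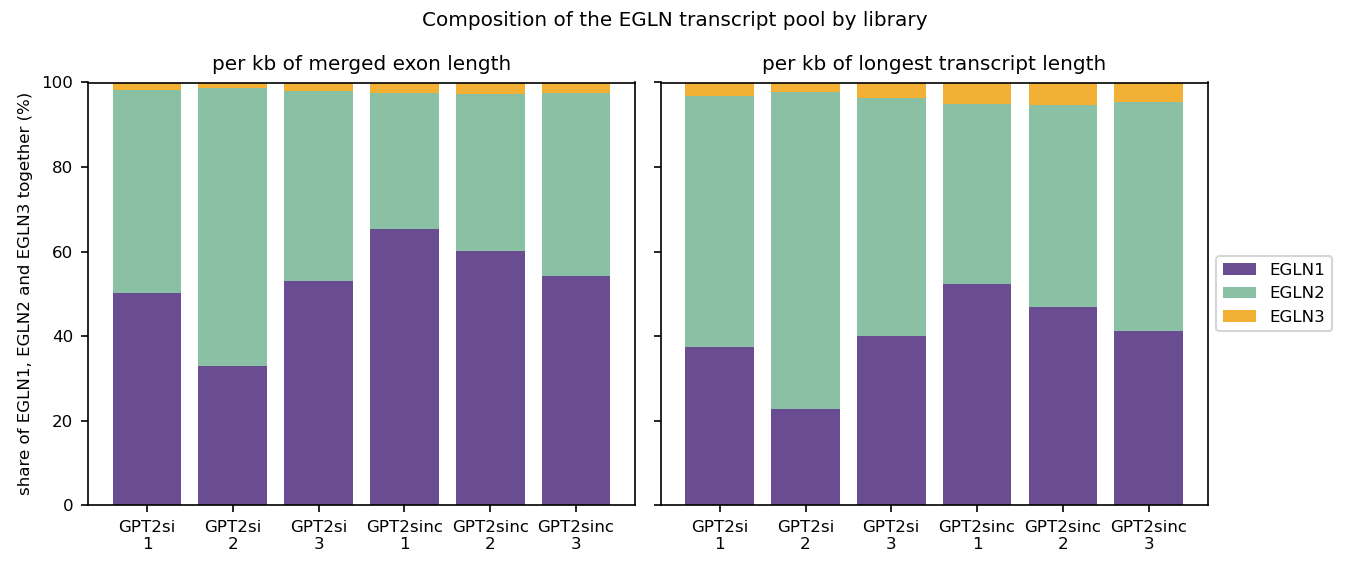
Share of EGLN1, EGLN2 and EGLN3 in their summed level per kilobase, in percent, for each library with GPT2si left and GPT2sinc right; the left panel uses merged exons and the right panel the longest transcript as length. EGLN1 is at its smallest in GPT2si 2, with 33.0% by merged exons, and at its greatest in GPT2sinc 1, with 65.4%. The shares are not adjusted for the trend on GC content and length.

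VHL, the substrate-binding part of the ubiquitin ligase that recognises hydroxylated alpha subunits, lies at chr3:10141008-10152220 on the plus strand. It had 119, 115 and 113 CPM in GPT2si 1 to 3, against 123, 124 and 119.8 CPM in GPT2sinc 1 to 3. The groups did not overlap, but the nearest libraries of the groups were within 1 CPM of each other. The mean of 116 ± 3.20 CPM in GPT2si is 94.6% of the 122 ± 2.16 CPM in GPT2sinc (SD, n = 3 each), and the log2 fold change of −0.08 ± 0.08 SE did not pass (95% interval −0.25 to 0.09, edgeR adjusted p = 0.584). With the GC and length trend removed, the libraries overlapped.

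HIF1AN encodes FIH, the asparaginyl hydroxylase that keeps alpha subunits from coactivators (chr10:100529072-100559998, plus strand). It had 91.3, 99.96 and 88.7 CPM in GPT2si 1 to 3, against 79.9, 82.4 and 89.3 CPM in GPT2sinc 1 to 3. The groups overlapped through GPT2si 3 and GPT2sinc 3. The log2 fold change was 0.15 ± 0.09 SE with a 95% interval of −0.04 to 0.35 (edgeR adjusted p = 0.365), and 0.35 ± 0.16 SE with the GC and length trend removed (edgeR adjusted p = 0.173). NDUFB8, a respiratory chain gene on the other strand, shares 325 exonic bases with HIF1AN; the libraries kept strand, but no source used here gives the strand setting of the counting, so reads of the pair may not be separated. NDUFB8 had 155, 156 and 135 CPM in GPT2si 1 to 3, against 167, 172 and 179 CPM in GPT2sinc 1 to 3.

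**Figure D4:**
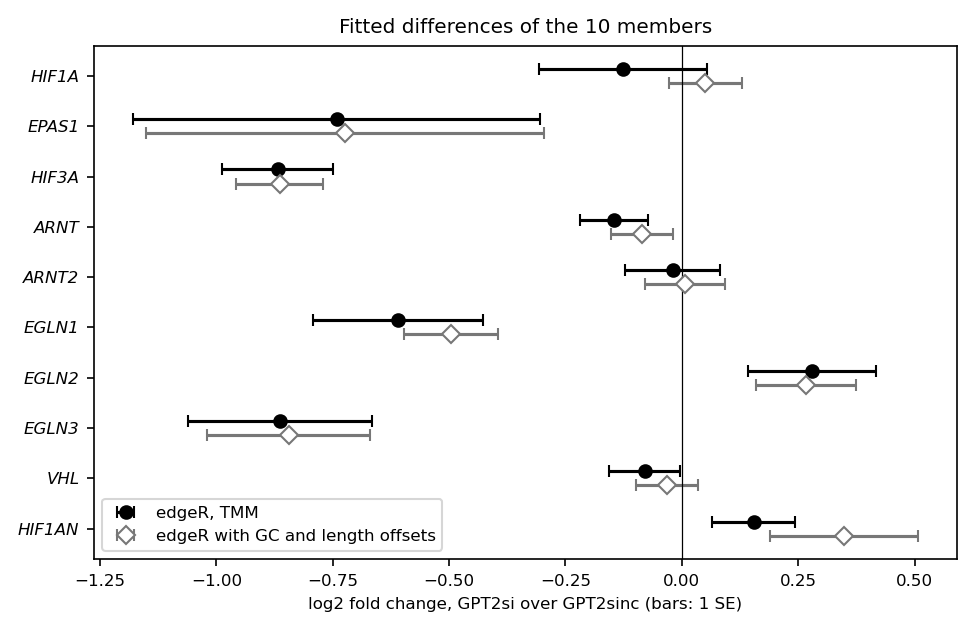
Log2 fold change of GPT2si over GPT2sinc for the 10 genes with bars of 1 SE, from edgeR with TMM scaling (filled circles) and with added offsets for GC content and length (open diamonds). HIF3A lies at −0.87 and −0.86, EGLN1 at −0.61 and −0.50, and HIF1A changes sign between −0.13 and 0.05.

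Ordered by level per kilobase of merged exons in GPT2si, ARNT led with 31.96 RPKM, followed by VHL (27.4), HIF1A (17.4), EGLN2 (13.0), EGLN1 (11.3), HIF1AN (6.69), ARNT2 (4.06), HIF3A (2.05), EGLN3 (0.399) and EPAS1 (0.0861). Neighbours whose library ranges overlapped were HIF1A with EGLN2 and EGLN2 with EGLN1. In GPT2sinc the order was the same except that EGLN1 (17.2 RPKM) stood above EGLN2 (10.7 RPKM), and the overlapping neighbours were HIF1A with EGLN1 and ARNT2 with HIF3A. With the longest transcript as length EGLN1 and EGLN2 had 11.5 and 22.0 RPKM in GPT2si, the same order, against 17.6 and 18.2 RPKM in GPT2sinc, where their order turned and their ranges overlapped.

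The genes whose profile over the 6 libraries lay nearest to a HIF gene were sought among 10202 protein-coding genes with a mean of at least 5 CPM, by the root mean square difference of centred log2 CPM. For HIF1A they included FIGN (0.0283) and ELMOD2 (0.0294), with GC contents of 39.0% and 33.6%, and for EGLN1 they were RYBP (0.0303), GKAP1 (0.0399) and MTR (0.0406), with 40.6%, 42.2% and 45.0%. For EGLN3 they were KLHL3 (0.0747), SNAPC3 (0.0814) and RIMKLA (0.0825), of which RIMKLA passed the edgeR test (log2 fold change −0.83, adjusted p = 0.0352). None of these genes was chosen for a function.

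Among the genes HIF acts on, all 25 of a list of transcribed HIF targets had negative log2 fold changes, with a median of −0.69 beside −0.01 over all genes. Of these, 11 fell by the edgeR test and 0 rose, which is 44.0% lower against 0.841% of all genes. The list was drawn up with earlier results of these data known and is not independent evidence of a direction. In 24 of the 25 every GPT2si library lay below every GPT2sinc library, against 13.2% of all genes, the exception being LOX, and the median deviations of the list were −0.17, −0.59 and −0.19 in GPT2si 1 to 3 against 0.41, 0.26 and 0.23 in GPT2sinc 1 to 3. CA9, a membrane carbonic anhydrase, fell to 54.0, 36.9 and 53.2 CPM in GPT2si, against 114, 111 and 103 CPM in GPT2sinc (log2 fold change −1.18 ± 0.14 SE, edgeR adjusted p = 0.0115). ANGPTL4, a secreted inhibitor of lipoprotein lipase, fell to 105, 87.8 and 102 CPM in GPT2si, against 219, 189 and 171 CPM in GPT2sinc (−0.97 ± 0.11 SE, edgeR adjusted p = 0.0115). The glycolytic enzyme ALDOC averaged 220.2 CPM in GPT2si and 392 CPM in GPT2sinc (−0.83 ± 0.09 SE, edgeR adjusted p = 0.0111), and the lactate exporter SLC16A3 averaged 102 CPM in GPT2si and 170.1 CPM in GPT2sinc (−0.74 ± 0.09 SE, edgeR adjusted p = 0.0115). The other 7 that fell were NDRG1, BNIP3, SLC2A1, PFKFB4, P4HA2, MXI1 and HK2. VEGFA (−0.38, edgeR adjusted p = 0.134) and PDK1 (−0.85, edgeR adjusted p = 0.0711) did not pass. The number of targets past the edgeR test was 6 with no filter on low counts. It was 18 without GPT2si 2, 7 without GPT2si 3 and 1 without GPT2sinc 3. Without GPT2si 1, GPT2sinc 1 or GPT2sinc 2 it was 0. Medians were −0.76 to −0.51 over single libraries left out. DESeq2 and the fit with GC and length offsets called 21 each, all lower, where they called 7.89% and 11.7% of the genes they tested.

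Of 9 targets reported to prefer EPAS1 in other cells, 6 were tested. PLIN2, a lipid droplet coat protein, fell to 61.3, 45.2 and 52.4 CPM in GPT2si 1 to 3, against 87.1, 86.9 and 77.9 CPM in GPT2sinc 1 to 3 (log2 fold change −0.66 ± 0.12 SE, edgeR adjusted p = 0.0366). CCND1, cyclin D1, had a log2 fold change of 0.29 (edgeR adjusted p = 0.113), and TGFA had 0.16 (edgeR adjusted p = 0.575). The PLIN2 call was kept without GPT2si 2 and lost with no filter on low counts (adjusted p = 0.0875) and without GPT2si 1, GPT2si 3, GPT2sinc 1, GPT2sinc 2 or GPT2sinc 3 (adjusted p up to 0.187), with log2 fold changes of −0.79 to −0.58 over single libraries left out. The list's median was 0.06.

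In 4 lists of genes that work beside the HIF system, 0 members passed the edgeR test, beside 1.42% of all genes. At that share, lists this short would hold few calls or none. The counts that follow stand against 19.6% of all 17006 genes with an unadjusted p under 0.05. These were 1756 with higher and 1576 with lower values. DESeq2 called 7.89% of the 13435 genes to which it gave an adjusted p. With GC and length offsets, edgeR called 11.7% of 16825 genes. Of 24 partners of alpha subunit turnover, 23 were tested and 0 passed. An unadjusted p under 0.05 was seen for 2 with higher and 1 with lower values, and the median was 0.06. DESeq2 called 2 and the fit with offsets called 2, all higher. The scaffold proteins WTIP (0.46, edgeR adjusted p = 0.0907) and AJUBA (0.37, 0.0934) and the ubiquitin ligases SIAH1 (−0.29, 0.219) and SIAH2 (−0.19, 0.284), which act on prolyl hydroxylases, had the smallest p-values. Of 17 coactivators and corepressors 0 passed the main edgeR fit, with an unadjusted p under 0.05 for 5 with higher and 2 with lower values. The median was 0.17. DESeq2 made 1 call in each direction, and the fit with offsets called 4 higher and 2 lower. The mediator kinase CDK8 had −0.59 (edgeR adjusted p = 0.0838), the ATPase RUVBL1 0.46 (0.0945), the deacetylase HDAC7 0.35 (0.128) and CITED2, which competes with HIF for p300, −0.42 (0.145).

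Of 18 other bHLH-PAS, PAS and clock factors 12 were tested and 10 had negative log2 fold changes, against 52.0% of all genes. Their median was −0.18, and not every clock factor of this list belongs to the bHLH-PAS or PAS families. By the main edgeR fit 0 passed. An unadjusted p under 0.05 was seen for 5, all with lower values, beside the 19.6% of all genes in either direction. DESeq2 called 1 and the fit with offsets called 1, both lower. These fits called 7.89% and 11.7% of the genes they tested. The clock gene PER1 had 96.7, 104 and 94.8 CPM in GPT2si 1 to 3, against 134.5, 129 and 123 CPM in GPT2sinc 1 to 3 (log2 fold change −0.39 ± 0.08 SE, edgeR adjusted p = 0.0562). PER1 passed in 5 of 9 alternative settings, among them upper-quartile factors (edgeR adjusted p = 0.0347). With single libraries left out PER1 passed in 1 of 6 fits. BHLHE40, a clock repressor, had −0.28 (0.150), NPAS1 −0.39 (0.173) and BMAL1 −0.38 (0.215). Of 24 enzymes that make or use 2-oxoglutarate, succinate and fumarate, the substrate, product and inhibitor of the hydroxylases, 12 had negative values, the median was −0.00, and 0 passed edgeR. An unadjusted p under 0.05 was seen for 2 with higher and 3 with lower values, a share near the 19.6% of all genes. DESeq2 called 1 higher, and the fit with offsets called 2 higher and 1 lower. The assembly factor SDHAF2 had 0.37 (edgeR adjusted p = 0.106), D2HGDH −0.34 (0.150), SUCLG2 −0.31 (0.198) and DLD −0.34 (0.231).

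**Figure D5:**
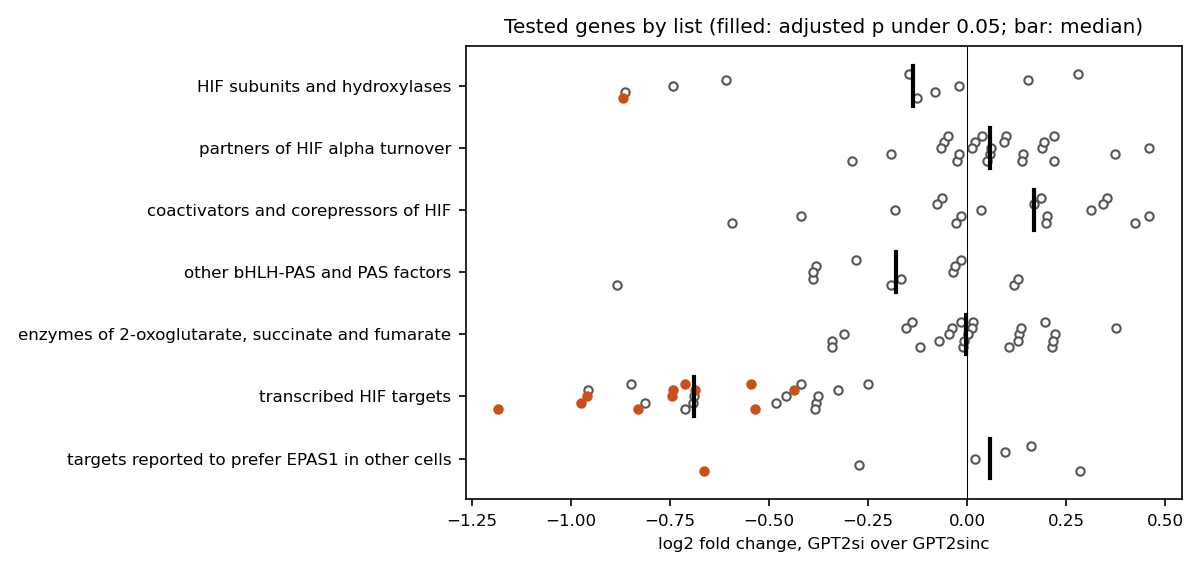
Log2 fold change of GPT2si over GPT2sinc for every tested gene of the 10 HIF genes and of the 6 lists of related genes; filled points passed the edgeR test at an adjusted p under 0.05 and the bar is the median. The transcribed HIF targets lie wholly below 0 with 11 filled points, and the HIF genes hold 1, HIF3A. The list labelled as other bHLH-PAS and PAS factors also holds clock factors outside these families.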

How the data were processed

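Poly(A)-selected, strand-specific libraries of A2780 cells were made with dUTP in the second strand and amplified by PCR, per the labels' protocols. The authors deposited raw counts per Ensembl gene, unnormalized, with 1 column per library; 0 columns could not be mapped. CASAVA and StringTie appear, unversioned, in what the submitters' processing notes list; the aligner, counter, strand setting, build and annotation are not given in sources used here. Symbols were found for 60295 of 60564 rows. Positions, GC content and exon lengths came from GENCODE 29 (58457 rows matched), and promoter windows from RefSeq.

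Groups were compared with edgeR 4.0.16 in R 4.3.3 (TMM, filterByExpr, quasi-likelihood F test, no covariate), with Benjamini-Hochberg adjustment over 17006 genes and a threshold of 0.05. SE and 95% intervals were derived from the F statistic. RPKM is CPM per kilobase. Within-library log2 count ratios were compared with two-sided exact permutation tests. Alternatives were other scalings and filters, DESeq2 1.42.0, limma 3.58.1 (voom), single libraries left out, a replicate block, and offsets from a loess trend (span 0.5) of log2 CPM on GC content and length, which covered 98.9% of the genes tested. The script was tested on simulated data. No pair of libraries agreed within sampling noise (smallest chi-square per degree of freedom 7.71).

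The 10 genes and all lists were chosen with earlier results of these data known. Named are the 10 genes, GPT2, up to 4 genes of each list with the smallest p, genes that overlap one of the 10, and the 3 nearest profiles of HIF1A, EGLN1 and EGLN3; NDRG1, BNIP3, SLC2A1, PFKFB4, P4HA2, MXI1, HK2, VEGFA, PDK1 and LOX were named after their values were seen. Some genes that this rule takes are not reported here.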

Additional observations from a re-analysis of the deposited data

How the results depend on the processing

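Of the 10 HIF genes, 1 passed under DESeq2 size factors, upper-quartile factors, no filter, a filter of 1 CPM and limma-voom, and 3 (HIF3A, EGLN1 and EGLN3) passed with DESeq2, with GC and length offsets, with a replicate block and with both; leaving out single libraries gave 0 to 2. Genes called over all numbered 44 with no filter, 1060 with DESeq2 (600 higher, 460 lower), 1973 with GC and length offsets (1306 higher, 667 lower), 558 with a replicate block and 1998 with offsets and the replicate block, against 241 (98 higher, 143 lower), and 1 to 836 with single libraries left out. Of the 107 tested genes of the lists, 12 passed the main edgeR fit, 11 of them transcribed HIF targets and the other PLIN2. That target list was drawn up with earlier results known. Calls among the 107 numbered 6 with no filter, 29 with DESeq2, 35 with offsets, 22 with the replicate block and 30 with both. With single libraries left out they numbered 0 to 22. The main fit, DESeq2 and the fit with offsets called 1.42%, 7.89% and 11.7% of the genes they tested. The log2 fold change of HIF1A turned positive with offsets (0.051), with offsets and the replicate block (0.053) and without GPT2si 2, and was −0.30 to 0.037 with single libraries left out. That of ARNT2 turned positive with offsets (0.0070), with offsets and the replicate block (0.0099) and without GPT2si 1, GPT2sinc 2 or GPT2sinc 3, in a range of −0.083 to 0.022. The cause was not tested. Same-numbered libraries did not deviate together (r = 0.09, 0.11 and −0.19 across genes). With 3 libraries per group these values cannot tell whether the numbers pair the libraries, and the labels do not say. The 3 within-library ratios kept their direction with single libraries left out. EPAS1 to HIF1A then differed by −0.73 to −0.03, EGLN3 to EGLN1 by −0.33 to −0.21 and ARNT2 to ARNT by 0.07 to 0.17. Another gene length or a replicate block leaves the group difference of a ratio as it was, so neither could change a direction. With the replicate block the exact p of these ratios was 0.5, 0.25 and 0.25, where 0.25 is the smallest that 3 pairs of libraries allow. The ratios were not run with GC and length offsets. The filter of 1 CPM removed EPAS1, whose 17 to 82 counts limit its precision.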
